A study of Rattus norvegicus with 12 samples.

Results

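The response to an MFN+GelMA implant at 4 weeks was compared with that at 2 weeks in rat tissue. RNA sequencing had measured 3 libraries at each time, called MFN+GelMA 2W and MFN+GelMA 4W, out of 12 libraries in the series. GelMA is gelatin methacryloyl, a hydrogel cured with light. MFN is not spelled out in the labels. The series title speaks of a microfiber together with GelMA, so MFN+GelMA was a composite of the hydrogel and another component. All 6 libraries came from animals with this implant, and the 6 other libraries, 3 at each time, came from animals given GelMA alone. The tissue is labelled as subcutaneous tissue or muscle. The sources used here do not give strain, sex, age or any genetic change of the rats, and an unimplanted group was not used here. The labels do not say that the 3 libraries of a group came from separate animals, so a p-value reflects the spread among these 3 samples per group, and that spread may be technical. Replicates 1 to 3 of a group are written r1 to r3. Of 21797 genes, 11756 had at least 1 FPKM in 3 or more of the 6 MFN+GelMA libraries and make up the comparison. FPKM counts fragments per length of transcript and per library size.

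An implanted material is met by a foreign body response. Proteins coat the surface, neutrophils and monocytes arrive, and monocytes become macrophages, which may fuse into giant cells when the material is too large to be engulfed. Fibroblasts and new vessels form a granulation tissue around it, and this tissue later matures into a capsule of collagen. Macrophages in that setting can take on the lysosome-rich, lipid-handling state known from fat tissue and atherosclerosis, and giant cells share many genes with the osteoclast, the cell that resorbs bone.

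The libraries of both times had similar depth. About 11902319 to 12320535 fragments at 2 weeks and 12433568 to 14043165 at 4 weeks were estimated from the steps between the deposited count-like values, so all 4W libraries were the deeper ones. Mitochondrial genes took 21.8% to 24.5% of the summed FPKM at 2 weeks and 22.4% to 32.7% at 4 weeks, the highest in MFN+GelMA 4W r1. Over the genes tested, log2 values correlated at 0.957 to 0.979 (Pearson's r across genes) between libraries of one time and at 0.918 to 0.937 across times. On the first principal component of all 12 libraries (36.3% of the variance) the 3 libraries of MFN+GelMA 4W lay between 43.6 and 49.4 and the 9 other libraries between -38.2 and -3.34.

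The tissue label was checked against markers. Acta1, the actin of skeletal muscle, stood at 0.0627, 275 and 0.55 FPKM at 2 weeks and 0, 0.303 and 0.596 FPKM at 4 weeks, so MFN+GelMA 2W r2 carried muscle RNA and the other 5 libraries stayed below 1 FPKM. Adipoq, the fat cell hormone adiponectin, was at 0.305, 6.31 and 4.89 FPKM at 2 weeks and 1.68, 8.48 and 10.4 FPKM at 4 weeks. The epidermal keratin gene Krt5 was listed at 0 in all 6 libraries, and Cd79a of the B cell receptor stayed at or below 1.5 FPKM. Myeloid cells were abundant by comparison, with the macrophage gene Cd68 at 535, 583 and 569.7 FPKM at 2 weeks and 881, 957 and 906 FPKM at 4 weeks. In bulk tissue such as this, a change in the number of cells of a type cannot be told apart from a change in RNA per cell. Results that move by more than 1.5 times without any single library, the one with muscle included, are given below both ways.

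Between 2 and 4 weeks the tissue around the composite implant changed broadly. Of the 11756 genes 2386 passed the test, which is 20.3% (limma on log2(FPKM + 1), Benjamini-Hochberg adjusted p under 0.05). The 1384 that rose were 11.8% of all genes tested and the 1002 that fell were 8.52%. The median log2 change over all genes tested was 0.02. A log2 change of at least 1 was seen for 440 of the genes that rose, and 354 of those that fell had -1 or less. Without MFN+GelMA 4W r1, 1545 genes passed, 990 higher and 555 lower, and without MFN+GelMA 4W r3 915 were higher. The balance of directions moved with the scaling. When FPKM were rescaled without the mitochondrial genes, 1068 genes rose and 1289 fell, so that 45.3% of the calls were higher in place of 58%.

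**Figure D1:**
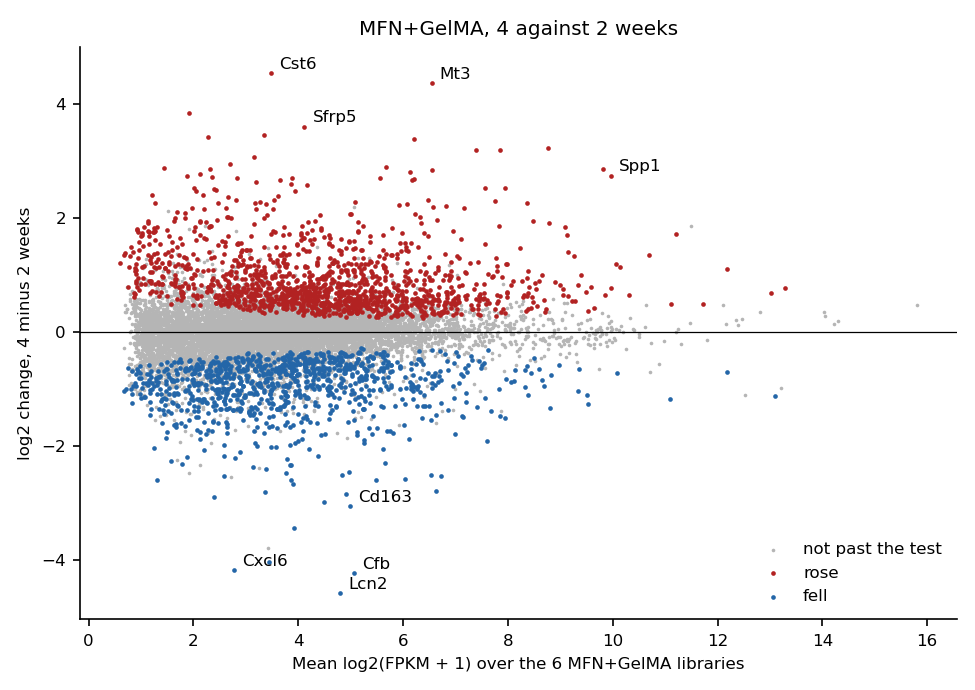
Change from 2 to 4 weeks in MFN+GelMA for each of the 11756 genes tested. The horizontal axis is the mean of log2(FPKM + 1) over the 6 libraries and the vertical axis the log2 change, 4 minus 2 weeks. Coloured points are the 1384 genes that rose and the 1002 that fell, and grey points did not pass. The 8 labelled genes, among them Cst6 at 4.55 and Lcn2 at -4.58, are examples with large changes and not the 8 largest.

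The largest rises were in Cst6, Mt3 and Sfrp5 and in 12 other genes picked by the same rule. Cst6, which encodes cystatin E/M, a secreted inhibitor of cysteine proteases such as cathepsins (rn6 chr1:220727291-220729000), was at 1.86, 0.744 and 1.45 FPKM in the 2W libraries and 51.7, 35.3 and 81.1 FPKM in the 4W libraries. The lowest 4W library was many times above the highest 2W library, and the log2 change was 4.55 ± 0.43 (± standard error of the fit, 3 libraries per time, limma adjusted p = 1.47e-04). Mt3, a metal-binding metallothionein best known from brain, went from 31.6, 5.85 and 37.2 to 297, 474 and 543 FPKM (log2 change 4.38 ± 0.71). The secreted Wnt inhibitor gene Sfrp5 went from 7.93, 2.21 and 3.24 to 65.3, 53 and 60.7 FPKM (log2 change 3.61 ± 0.39). For both the groups did not overlap. The library with muscle RNA was the lowest of the 2W libraries for Cst6, Mt3 and Sfrp5.

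Other genes among the 15 largest rises had varied roles. A2m, the broad protease inhibitor alpha-2-macroglobulin, rose by 3.43 ± 0.54 on the log2 scale, although MFN+GelMA 4W r2 reached only 4.37 FPKM beside 28.3 and 25.2 in the other two. Serpine2, an inhibitor of thrombin and plasminogen activators, rose from 87.5, 65.9 and 73 to 682, 763 and 647 FPKM. Hspb7, a small heat shock protein of heart and muscle, rose from 2.3, 3.56 and 0.874 to 25.5, 35.7 and 38.6 FPKM, and the tight junction gene Cldn4 from 1.89, 0.486 and 0.472 to 12.4, 9.83 and 15.8 FPKM. For Serpine2, Hspb7 and Cldn4 every 4W library lay above every 2W library. Cela1, an elastase-type serine protease, rose by 3.08 ± 0.38. Stra13 and Pxt1 were listed at 0 in every 2W library and reached 4.45, 32.5 and 15.1 and 3.03, 3.71 and 20.0 FPKM at 4 weeks, so no fold is given. Lpl, Mmp9, Mmp12 and Atp6v0d2, also among the 15, are described with the macrophage and giant cell genes.

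Lcn2 had the largest fall among the 15 genes picked in that direction. It encodes lipocalin-2, an iron-trapping protein of neutrophils and inflamed epithelia (rn6 chr3:11414185-11417546). Lcn2 stood at 88.6, 66.4 and 412 FPKM at 2 weeks and at 2.52, 5.71 and 6.79 FPKM at 4 weeks, a log2 change of -4.58 ± 0.68 (adjusted p = 0.00103). MFN+GelMA 2W r3 was the highest, and even the lowest 2W library was far above all 3 libraries of 4 weeks. Slpi, a secreted inhibitor of neutrophil elastase, fell from 163, 64.4 and 393 to 36.3, 25.4 and 18.9 FPKM, and the metallothionein gene Mt2A from 210.5, 138 and 588 to 32.8, 37.8 and 38.9 FPKM. Both had their highest value in MFN+GelMA 2W r3. Prnd, the prion-like protein doppel, fell by 2.89 ± 0.40 and Pamr1, a gene first linked to muscle regeneration, by 2.53 ± 0.32 on the log2 scale. The 10 others of the 15 belong to the complement, chemokine, interferon, cytokine, T cell and macrophage lists below.

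**Figure D2:**
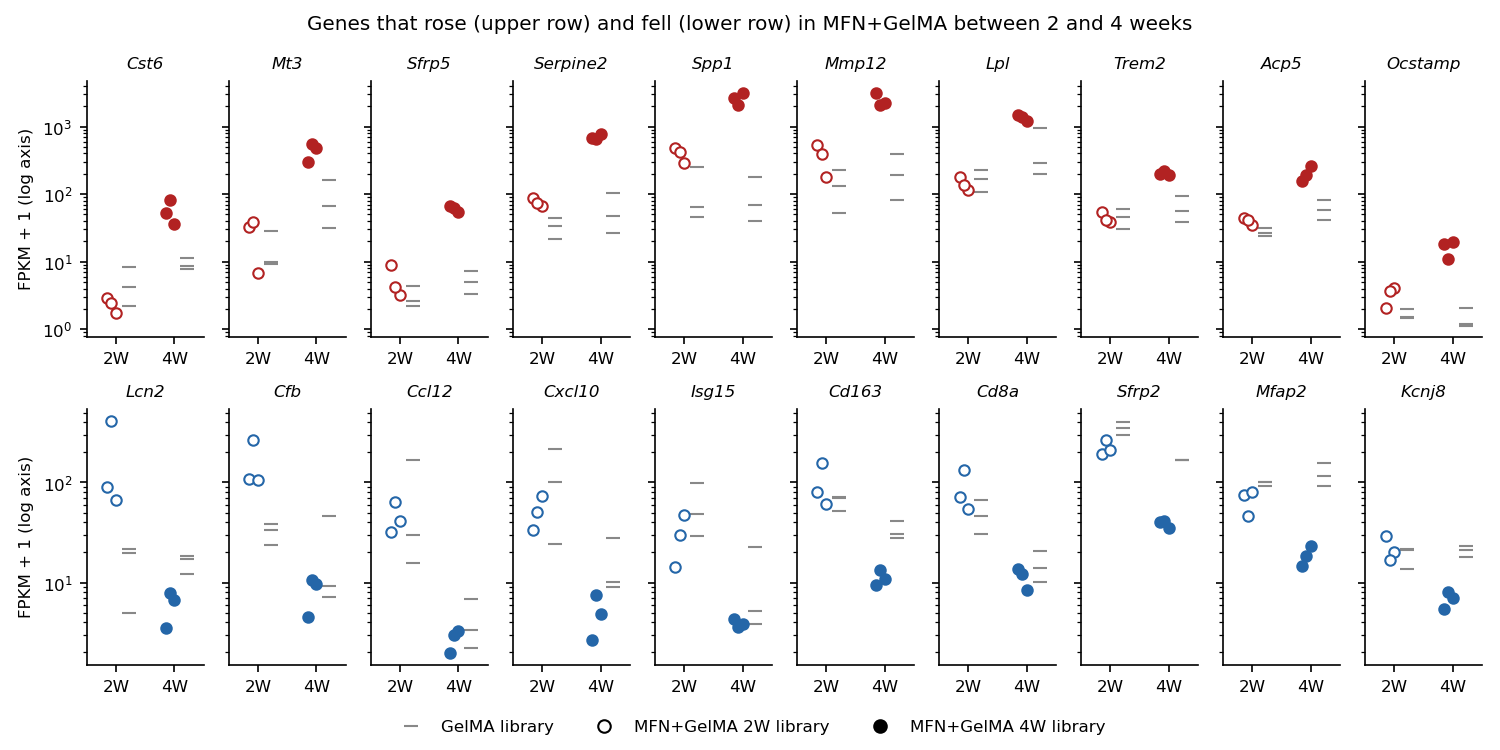
FPKM of 10 genes that rose (upper row) and 10 that fell (lower row) in every library, on a log axis of FPKM + 1. Open points are the 3 MFN+GelMA 2W libraries, filled points the 3 MFN+GelMA 4W libraries and grey marks the 6 GelMA libraries at their week. The 2 MFN+GelMA times do not overlap for any of the 20 genes, from Cst6 (at most 1.86 FPKM at 2 weeks, at least 35.3 at 4 weeks) to Lcn2 (at least 66.4 and at most 6.79). All 20 were picked among genes that passed the test in these same libraries, so the separation adds no support.

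Macrophage identity genes rose in part. Of 21 tested genes of macrophages and myeloid leukocytes 12 rose and 0 fell, with a median log2 change of 0.70. The background is that 11.8% of all genes tested rose. The pan-leukocyte phosphatase gene Ptprc (CD45) went from 55.9, 50.9 and 56.4 to 124, 116 and 108 FPKM. Csf1r, the receptor for the macrophage growth factor M-CSF, went from 205, 187 and 202 to 305, 309 and 357 FPKM, Cybb of the phagocyte oxidase from 366, 313 and 365 to 1004, 821 and 935 FPKM. Itgb2, the shared chain of the leukocyte integrins, rose by 1.48 ± 0.25 and the lysosomal membrane gene Laptm5 by 1.19 ± 0.18 on the log2 scale. Cd68 rose by 0.70 ± 0.22 (adjusted p = 0.0399), a call that was lost without any 1 of the 6 MFN+GelMA libraries (adjusted p 0.0781 to 0.105) and under each of 4 other scalings. The rise was not shared by all identity genes, since Adgre1 (F4/80) had a log2 change of -0.22, Aif1 -0.20 and the scavenger receptor gene Msr1 -0.17, none past the test. The number that rose was 5 without MFN+GelMA 4W r3, 6 without MFN+GelMA 2W r1, MFN+GelMA 2W r2 or MFN+GelMA 4W r1 and 7 without MFN+GelMA 4W r2, and 7 rose with quantile normalization.

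Genes of the lipid-associated macrophage, a state of macrophages loaded with lipid or debris, rose as well. Of 21 tested genes 13 rose and 1 fell, with a median of 1.33, and 13 or 14 rose when any single library was left out. Lpl, the lipase that releases fatty acids from lipoproteins, rose from 179, 115 and 134 to 1459, 1185 and 1360.2 FPKM. Lipa, the lysosomal lipase, rose from 114, 88.1 and 87.6 to 519, 390.2 and 543 FPKM, and the fatty acid carrier gene Fabp5 from 393, 366 and 394 to 886, 982 and 1047 FPKM. All 3 libraries of 4 weeks lay above all of 2 weeks for each of these lipid-handling genes. Trem2, a receptor for lipids and cell debris, rose from 52.6, 37.7 and 40.3 to 197, 189.6 and 220.0 FPKM. Itgax (CD11c), which shares its locus with 1 other row of the table, rose from 34.1, 23.3 and 25.7 to 184, 179.9 and 180.2 FPKM, and the tetraspanin gene Cd9 from 195, 127 and 133 to 762, 689 and 716 FPKM. The secreted proteins of this state were among the most abundant transcripts. Spp1 (osteopontin) rose from 476, 286 and 414 to 2672, 3087 and 2084 FPKM and Mmp12, the macrophage elastase, from 535, 179 and 392 to 3116, 2220.2 and 2106 FPKM. Gpnmb, a lysosomal glycoprotein chosen after its values were seen, rose by 1.11 ± 0.26. Apoe, the lipoprotein ligand that usually marks this state, was the member that fell, by 1.12 ± 0.25 (adjusted p = 0.00864, and 0.062 with no filter on low values). Without GelMA 2W r3 or GelMA 4W r2, 2 members fell. With quantile normalization or without the mitochondrial genes 2 fell.

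Promoter sequences of 10 of the 13 genes that rose in this list were found by symbol in RefSeq (build GRCr8), and 5 of them, Gpnmb, Cd63, Mmp12, Itgax and Pla2g7, hold the AP-1 letters TGAGTCA on either strand in the 250 bases before the start. Of all 27457 RefSeq promoters of this length 3.98% hold it. AP-1 is the dimer of Fos and Jun proteins. 6 motifs were looked at and this one was chosen after the counts were seen, and a match in letters is not a binding site or a cause of the rise. The promoters of 3 genes with large values are shown since they place the motif close to the start, 5′ to 3′ on the strand of the gene, with the motif in capitals (Itgax chr1:192149799-192150048, plus strand, Gpnmb chr4:79340878-79341127, plus strand and Mmp12 chr8:12866402-12866651, plus strand).
Itgax: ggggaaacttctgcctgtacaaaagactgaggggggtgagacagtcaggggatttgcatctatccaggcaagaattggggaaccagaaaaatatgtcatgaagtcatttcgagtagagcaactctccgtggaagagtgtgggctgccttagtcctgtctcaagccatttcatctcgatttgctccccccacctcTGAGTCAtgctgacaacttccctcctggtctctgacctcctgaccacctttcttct
Gpnmb: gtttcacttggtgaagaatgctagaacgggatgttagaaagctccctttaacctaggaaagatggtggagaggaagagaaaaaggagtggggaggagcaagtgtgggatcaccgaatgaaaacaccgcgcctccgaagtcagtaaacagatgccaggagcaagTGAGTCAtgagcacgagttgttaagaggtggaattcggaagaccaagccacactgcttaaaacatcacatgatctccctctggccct
Mmp12: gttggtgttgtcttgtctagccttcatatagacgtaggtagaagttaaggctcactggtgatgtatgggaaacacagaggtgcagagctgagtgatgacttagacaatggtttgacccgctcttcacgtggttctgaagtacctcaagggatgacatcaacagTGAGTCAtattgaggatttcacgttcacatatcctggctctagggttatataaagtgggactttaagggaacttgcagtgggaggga
The motif begins 56 bases before the start in Itgax and 87 bases before it in Gpnmb and in Mmp12.

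The osteoclast and giant cell genes rose as a group. Of 17 tested genes 11 rose and 0 fell, with a median log2 change of 0.94, and at least 11 rose with any 1 library left out. Ocstamp, a membrane protein needed for fusion of osteoclasts and of foreign body giant cells in the mouse, was at 1.1, 3.02 and 2.69 FPKM at 2 weeks and 17.3, 18.3 and 9.96 FPKM at 4 weeks. Atp6v0d2, a subunit of the proton pump that is also needed for fusion in the mouse, went from 21.4, 13.9 and 18.4 to 159.5, 122 and 135 FPKM. Acp5, the phosphatase TRAP that stains osteoclasts, went from 43.7, 33.6 and 40.6 to 156, 263 and 193 FPKM. In each case the times were fully separate. Tnfrsf11a, which encodes RANK, the receptor for the osteoclast factor RANKL, rose by 1.44 ± 0.20, Ckb, the brain-type creatine kinase, by 2.53 ± 0.28, and Ctsk, the collagen-cleaving cathepsin K, by 1.85 ± 0.29 on the log2 scale. Mmp9, the gelatinase of osteoclasts and leukocytes, went from 78.1, 42.1 and 49 to 393, 676 and 482 FPKM. The RANKL gene Tnfsf11 did not reach the level needed for the test. Tnfrsf11b, the decoy receptor osteoprotegerin that blocks RANKL, fell from 18.1, 17 and 20.5 to 9.88, 8.63 and 9.02 FPKM.

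In contrast, genes of resident-like and alternatively activated macrophages fell on balance. Of 16 tested genes 7 fell and 1 rose, with a median of -0.66, where 8.52% of all genes tested fell. Cd163, the haemoglobin scavenger receptor, dropped from 80.1, 60.6 and 154 to 8.36, 9.79 and 12.4 FPKM (log2 change -3.05 ± 0.29, adjusted p = 1.47e-04). Mrc1, the mannose receptor CD206, went from 138, 123 and 164 to 90.1, 63.7 and 82.5 FPKM, and Clec10a, a lectin receptor, from 119.9, 117 and 274 to 57.8, 39.6 and 65.8 FPKM. All 3 genes were separate between the times, with the highest values of Cd163 and Clec10a in MFN+GelMA 2W r3. The member that rose was Gas6, a bridging protein for dying cells, whose call was lost without MFN+GelMA 2W r1 or r3 or MFN+GelMA 4W r1 or r3 (adjusted p up to 0.107), and no member rose under 3 of 4 other scalings.

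Lysosome and energy genes rose in part. Of 35 tested lysosomal and vacuolar ATPase genes 15 rose and 3 fell (median 0.22), where 11.8% of all genes tested rose and 8.52% fell. Of the 5 members with the smallest p, 4 were subunits of the cytosolic arm of the proton pump. Atp6v1h went from 25.8, 25.8 and 33.7 to 83.2, 67.1 and 69.8 FPKM and Atp6v1d from 103, 101 and 101 to 229.7, 201 and 203 FPKM. Atp6v1b2 rose by 1.21 ± 0.20 and Atp6v1c1 by 0.76 ± 0.13 on the log2 scale. Lamp1, the main lysosomal membrane protein, fell from 979, 889.7 and 907 to 492, 422 and 434 FPKM. Of 25 glycolysis and hypoxia genes 9 rose and 0 fell (median 0.53). Pkm, which makes pyruvate, went from 264, 265 and 318 to 513, 672 and 529.9 FPKM, Pfkp, a phosphofructokinase, from 12.5, 13.7 and 16.7 to 26.2, 27.9 and 30.1 FPKM, and Ndrg1, a gene induced by hypoxia, from 130.3, 154 and 133 to 369, 331 and 338 FPKM. Of 32 nuclear genes of oxidative phosphorylation 13 rose and 0 fell (median 0.35), by small amounts such as 0.68 ± 0.13 for Ndufs1 of complex I and 0.60 ± 0.11 for Sdhb of complex II. The number that rose in this last list was 7 without MFN+GelMA 2W r1, MFN+GelMA 4W r2 or MFN+GelMA 4W r3 and 8 without MFN+GelMA 2W r2, and 8 with quantile normalization.

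Neutrophil genes fell in part, and cytokine genes changed in both directions. Few neutrophil genes were high enough to be tested, 6 of 16 in the table, and 3 of them fell (5 without MFN+GelMA 2W r2). Besides Lcn2 these were Csf3r, the receptor for the neutrophil growth factor G-CSF, which fell from 3.85, 3.77 and 7.98 to 1.03, 0.782 and 1.05 FPKM, and S100a9, a subunit of calprotectin, at 12.1, 3.45 and 21.6 and then 2.6, 2.6 and 2.56 FPKM. The call for S100a9 (adjusted p = 0.0264) was lost without any 1 MFN+GelMA library other than 2W r2, at adjusted p 0.0629 to 0.0815. Defining granule genes such as Mpo, Elane and Camp did not reach the level for the test at either time. Of 14 cytokine and mediator genes 2 fell and 2 rose, beside the 8.52% and 11.8% of all genes. Il1b, the cytokine interleukin-1 beta, fell from 39.8, 15.7 and 64.9 to 4.75, 5.45 and 4.54 FPKM, while Il1rn, the antagonist of its receptor, rose from 90.4, 57.6 and 88.2 to 441, 438 and 486 FPKM. Ptges, which makes prostaglandin E2, fell by 2.20 ± 0.31, and Cd86, a costimulator of T cells, rose by 1.76 ± 0.21. Without MFN+GelMA 2W r2, 5 genes of this list fell.

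Among chemokine and complement genes more fell than rose. Of 23 chemokine ligands 7 fell and 2 rose, with a median of -0.86, where 8.52% of all genes tested fell and 11.8% rose. Cxcl6, which attracts neutrophils, was at 61, 5.07 and 64 FPKM at 2 weeks and 0.524, 0.42 and 0.891 FPKM at 4 weeks, and the library with muscle RNA was the low one of 2 weeks. The monocyte-attracting Ccl12 fell from 31.1, 40.0 and 63.5 to 0.96, 2.24 and 2.01 FPKM and Ccl7 from 96.6, 53.4 and 189 to 21.2, 21.1 and 28.2 FPKM. Against this, Ccl9, made by macrophages and osteoclasts in the mouse, rose from 199, 148 and 196 to 686, 666 and 740.2 FPKM, with no overlap. The number that fell was 4 without MFN+GelMA 2W r1, and 1 gene rose without 2W r2, 4W r2 or 4W r3. Of 22 complement genes 8 fell and 3 rose. Cfb, factor B of the alternative pathway, fell from 107, 105 and 263 to 3.55, 8.61 and 9.57 FPKM (log2 change -4.23 ± 0.63), and its locus is shared with 3 other rows of the table. C3, the central component, fell from 126, 105 and 104 to 20.5, 30.7 and 16.5 FPKM, and C1r, which starts the classical pathway, from 726, 612 and 795 to 239, 287 and 319 FPKM. C4b fell by 1.51 ± 0.20, with the reservation that reads of C4a and C4b, near-identical genes, may have been divided between them. The genes that rose included Cd59, which blocks the membrane attack complex, from 112, 118 and 105 to 293, 236 and 270.5 FPKM, and C3ar1, the receptor for C3a, by 0.73 ± 0.16.

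Interferon-stimulated genes fell together. Of 29 tested genes 21 fell, 0 rose and all 29 had a negative log2 change, with a median of -1.10 beside 0.02 over all genes. Oas1a, an enzyme that senses double-stranded RNA, stood at 16.4, 29.7 and 24.3 FPKM at 2 weeks and 5.48, 4.43 and 4.91 FPKM at 4 weeks. Isg15, a ubiquitin-like modifier, went from 13.2, 46.1 and 28.6 to 3.29, 2.83 and 2.59 FPKM, and Mx2, a dynamin-like antiviral protein, from 39.5, 107 and 58.1 to 6.34, 5.7 and 9.66 FPKM. The library with muscle RNA, MFN+GelMA 2W r2, was the highest for all 3 genes, and no gene overlapped between the times. The regulator Irf7 went from 63.7, 188 and 109 to 17.1, 13.8 and 22.1 FPKM and the interferon-induced chemokine gene Cxcl10 from 32.4, 71.6 and 49.6 to 1.69, 3.87 and 6.48 FPKM, again highest in that library. Ifi27 fell by 1.49 ± 0.25, the membrane protein gene Ifitm3 by 0.84 ± 0.16 and the immunity-related GTPase gene Irgm by 1.01 ± 0.17. The number that fell was 9 without MFN+GelMA 2W r2, 11 without MFN+GelMA 4W r1 or MFN+GelMA 4W r2 and 13 without MFN+GelMA 4W r3. Irf7 and Cxcl10 share their loci with 1 and 2 other rows of the table.

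The promoters of these genes were searched for a motif. Interferon acts through factors that bind the interferon-stimulated response element (ISRE), searched here as GAAANNGAAA on either strand. Of the 21 genes that fell, 13 were found in the RefSeq promoters, and 10 of these hold the motif in the 250 bases before the start, namely Ifit3, Oas1a, Oas3, Irf7, Ifi27, Ifi44, Bst2, Ifitm3, Parp14 and Irgm. Of all RefSeq promoters 3.29% hold it. This is a description of letters, made with the list already known, and says nothing of binding in this tissue. The 4 promoters below show where the motif lies (capitals), on the strand of the gene in GRCr8 (Oas1a chr12:41330216-41330465, plus strand, Ifi27 chr6:128355062-128355311, plus strand, Irgm chr10:33742579-33742828, minus strand and Ifitm3 chr1:205541759-205542008, minus strand).
Oas1a: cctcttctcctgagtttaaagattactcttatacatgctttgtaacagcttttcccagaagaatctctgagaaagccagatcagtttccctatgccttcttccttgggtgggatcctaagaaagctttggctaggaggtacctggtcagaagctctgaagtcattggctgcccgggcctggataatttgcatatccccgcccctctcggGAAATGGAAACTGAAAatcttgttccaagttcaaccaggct
Ifi27: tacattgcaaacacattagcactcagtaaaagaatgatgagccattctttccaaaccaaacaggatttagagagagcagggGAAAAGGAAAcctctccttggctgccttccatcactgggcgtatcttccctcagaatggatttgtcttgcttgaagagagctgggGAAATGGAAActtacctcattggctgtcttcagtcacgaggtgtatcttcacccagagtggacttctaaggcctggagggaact
Irgm: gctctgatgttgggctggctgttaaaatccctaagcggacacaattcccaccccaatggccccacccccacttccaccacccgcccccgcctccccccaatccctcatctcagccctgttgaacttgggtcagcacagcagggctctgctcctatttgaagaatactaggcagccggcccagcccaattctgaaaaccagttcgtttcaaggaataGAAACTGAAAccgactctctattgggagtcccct
Ifitm3: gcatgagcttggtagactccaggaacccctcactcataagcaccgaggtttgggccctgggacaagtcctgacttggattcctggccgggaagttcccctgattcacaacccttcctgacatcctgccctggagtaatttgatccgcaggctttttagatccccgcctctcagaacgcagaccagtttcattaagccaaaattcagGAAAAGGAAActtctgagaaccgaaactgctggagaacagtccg
The motif begins 41 bases before the start in Oas1a, which holds 2 overlapping matches, 34 bases before it in Irgm and 44 bases before it in Ifitm3. Ifi27 holds 2 separate matches, 169 and 84 bases before the start.

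The share of T cell genes that passed was close to that of all genes. Of 20 tested T and cytotoxic lymphocyte genes 4 fell and 0 rose (median -0.41), where 20.3% of all genes passed and 8.52% fell. Cd8a, a chain of the CD8 coreceptor, fell from 70.1, 52.9 and 133 to 12.6, 7.44 and 11.2 FPKM and Cd8b from 31.2, 22.9 and 25.4 to 12.5, 10.9 and 10.5 FPKM. The T cell receptor gene Cd3e was at 2.39, 4.86 and 5.57 and 5.23, 5.59 and 4.25 FPKM and did not pass. Cd3e was far below Cd8a at 2 weeks, and which cells carried the Cd8a and Cd8b RNA was not tested. Tbx21 and Foxp3, which direct type 1 helper and regulatory T cells, fell by 0.79 ± 0.25 and 0.69 ± 0.20 at levels near 1 FPKM. Both calls were lost without MFN+GelMA 2W r1, 2W r2, 4W r1 or 4W r2, where 2 genes of the list fell (adjusted p up to 0.127 and 0.0793 over all 12 fits without 1 library). That of Tbx21 was also lost without GelMA 2W r1, GelMA 4W r3 or MFN+GelMA 2W r3, and that of Foxp3 without MFN+GelMA 4W r3. MHC class II genes, which present antigen, held 2 rises and 0 falls among 14 (median 0.14, with 1 rise under each of 4 other scalings), one of them RT1-DOb by 1.26 ± 0.26. The other was the cathepsin gene Ctss by 0.36 ± 0.11, a call lost without GelMA 2W r2 or any MFN+GelMA library but 4W r2 (adjusted p up to 0.145). Of 10 dendritic cell genes 2 rose, among them Irf4, a transcription factor, from 4.54, 6.24 and 4.32 to 11, 11.2 and 11 FPKM, and 1 fell, Fscn1, the actin bundler of mature dendritic cells, by 1.18 ± 0.16. The dendritic genes that rose were 1 without MFN+GelMA 2W r1, MFN+GelMA 2W r2, MFN+GelMA 4W r1 or MFN+GelMA 4W r3. Those that fell were 2 without GelMA 2W r3, GelMA 4W r1 or MFN+GelMA 2W r2 and 3 without GelMA 4W r2. Under 4 other scalings 2 or 3 dendritic genes fell. Of 8 mast cell genes none passed by limma (6 had a negative change, and 0 had an unadjusted p under 0.05). Of 3 tested B and plasma cell genes 1 rose, Sdc1, a proteoglycan that other cells also make, by 1.42 ± 0.34, and it did not pass without MFN+GelMA 2W r2 (adjusted p = 0.051).

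**Figure D3:**
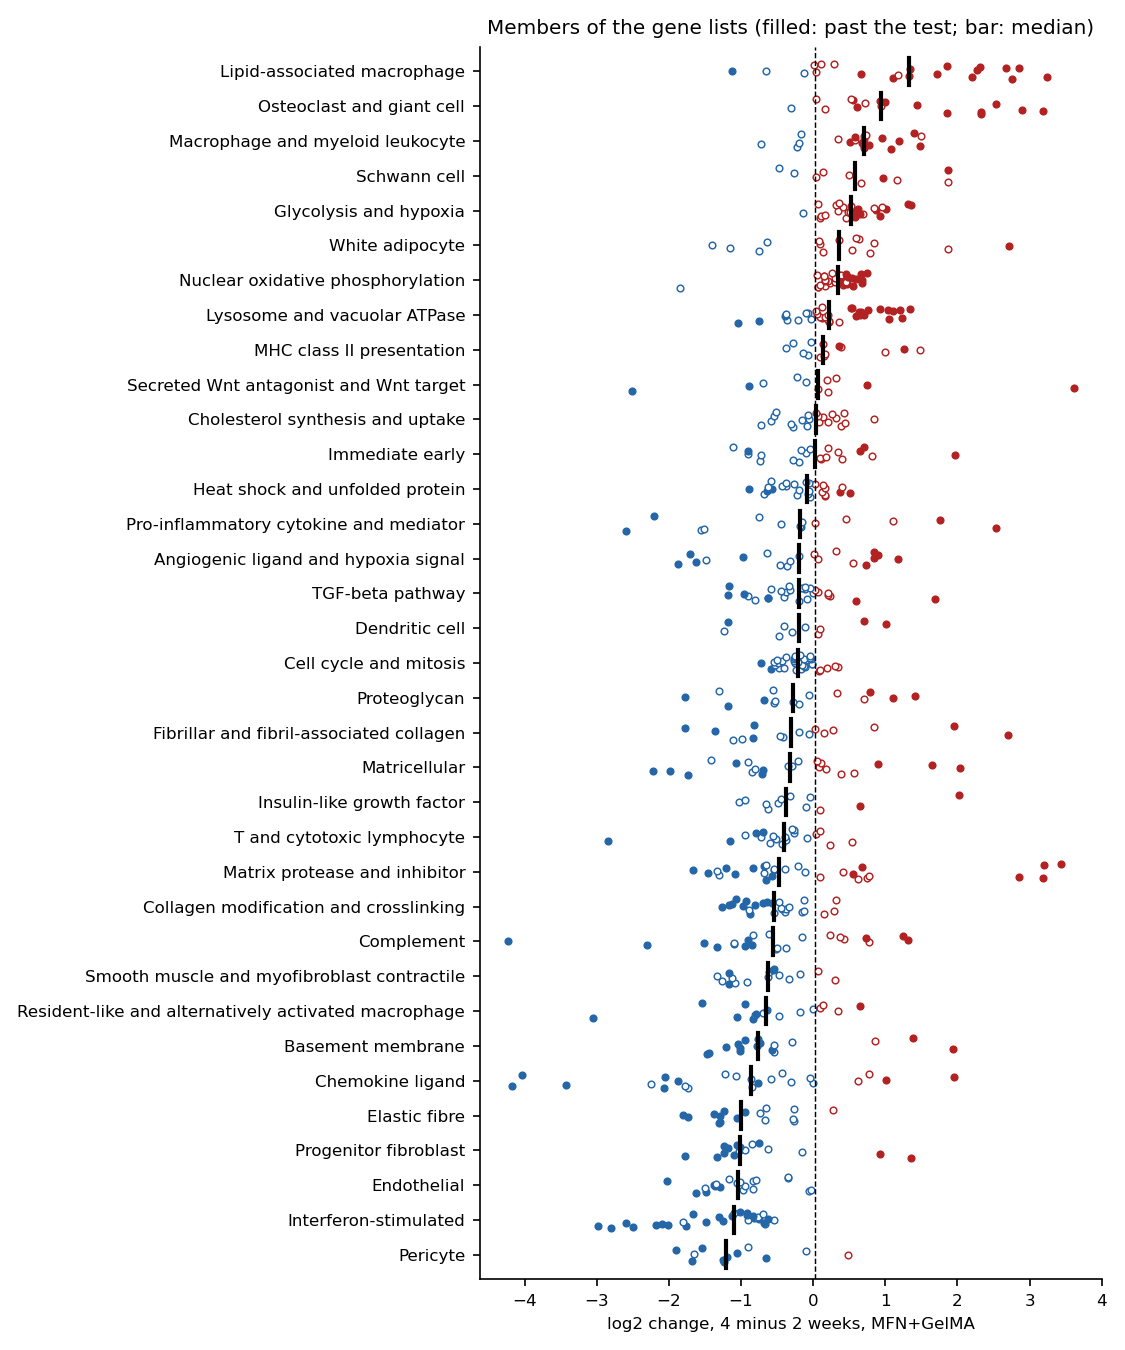
Log2 change from 2 to 4 weeks in MFN+GelMA of each tested member of the 35 gene lists with at least 10 tested genes, with 1 row per list. Filled points passed the test, open points did not, and the bar marks the median of the list, from 1.33 for lipid-associated macrophage genes to -1.21 for pericyte genes. The dashed line is the median over all genes tested, 0.02.

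Matrix genes differed by kind. Among fibrillar and related collagens 4 of 16 fell and 2 rose (median -0.31), beside 8.52% and 11.8% of all genes tested. Col1a1, the main collagen of scar tissue, was at 8848, 8474 and 8719 FPKM at 2 weeks and 3449, 5300.3 and 3522 FPKM at 4 weeks, and Col3a1 of young granulation tissue at 13583, 13992 and 12504 and 6304, 7476 and 6622 FPKM. Every 4W value lay below every 2W value for both, yet neither passed in the fit over all 12 libraries (adjusted p = 0.805 and 0.889). In that fit the spread is shared with GelMA, where Col1a1 is listed at 0 in 1 library and Col3a1 in 3, beside values of 6764, 6659 and 8253 FPKM for Col1a1 in GelMA 2W. Only 2 genes with a median of at least 50 FPKM over the 12 libraries have such a 0, and a listed 0 can be a failed estimate. In the fit of the 6 MFN+GelMA libraries alone both passed, with log2 changes of -1.11 ± 0.18 for Col1a1 (adjusted p = 0.00347) and -0.98 ± 0.13 for Col3a1 (adjusted p = 0.00159), and Col1a1 also passed without GelMA 4W r1 (adjusted p = 0.00608). Col14a1, a fibril-associated collagen, fell from 196, 209 and 157 to 74.1, 67.2 and 73.6 FPKM and Col6a6 from 11, 12.9 and 8.02 to 1.8, 3.32 and 2.15 FPKM. In the opposite direction, Col11a1, a minor fibril collagen of cartilage and of activated fibroblasts, rose from 3.24, 15.4 and 1.79 to 46.1, 30.2 and 35.3 FPKM and Col8a2, a network collagen, from 1.78, 1.7 and 0.468 to 7.18, 7.75 and 7.79 FPKM. The number that fell was 2 without any 1 of MFN+GelMA 2W r1 to r3, 4W r1 or 4W r3.

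The machinery that folds and trims collagen fell in part. Of 25 genes 11 fell and 0 rose (median -0.54), where 8.52% of all genes tested fell and 11.8% rose. Serpinh1, the collagen chaperone HSP47, went from 1070.3, 1111 and 1242 to 357, 643 and 469 FPKM. Bmp1, which cleaves the procollagen C-terminus, fell by 1.17 ± 0.15 on the log2 scale, and its enhancer Pcolce from 480.0, 427 and 444 to 197, 271 and 227 FPKM. Adamts14, which removes the N-terminus, fell by 1.13 ± 0.18 and the prolyl hydroxylase gene P3h1 by 0.70 ± 0.13. These 5 genes were lower in all 3 libraries of 4 weeks than in any of 2 weeks. They were picked by their change in these same libraries, so the separation adds no support.

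Elastic fibre and basement membrane genes fell. Of 16 elastic fibre genes 9 fell and 0 rose (median -1.0). Mfap2 and Mfap5, glycoproteins of the microfibril, fell from 73.6, 78.5 and 45.4 to 13.7, 22.2 and 17.5 FPKM and from 299, 366 and 324 to 125, 120.1 and 131 FPKM. Efemp1 (fibulin-3) fell from 91.4, 118 and 87.1 to 26.4, 29 and 30.7 FPKM and Fbln5, which binds elastin to microfibrils, from 17.6, 18 and 19.3 to 8.57, 8.93 and 7.46 FPKM. Ltbp1, which stores latent TGF-beta on microfibrils, fell by 1.23 ± 0.15. Of 17 basement membrane genes 11 fell and 2 rose (median -0.76), beside 8.52% and 11.8% of all genes tested. The laminin chain gene Lamc1 went from 108, 99.1 and 103 to 53.1, 49.2 and 46.9 FPKM, and Nid1, which links laminin and collagen IV, from 176, 192 and 165 to 118, 98.6 and 101 FPKM. Lama3 and Col17a1, best known from the junction under epithelia, rose instead, from 7.94, 9.57 and 7.57 to 38.2, 34.6 and 31.5 FPKM and from 1.42, 1.99 and 1.07 to 5.25, 5.08 and 5.88 FPKM, in tissue where Krt5 was listed at 0. The number of basement membrane genes that fell was 5 without MFN+GelMA 2W r1, MFN+GelMA 2W r2 or MFN+GelMA 4W r1 and 6 without MFN+GelMA 4W r3.

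Proteoglycans, matricellular proteins and proteases moved in both directions. Of 15 proteoglycan genes 3 fell and 3 rose, beside 8.52% and 11.8% of all genes tested. Dcn (decorin), which binds collagen fibrils, fell from 3550.0, 2615 and 3811 to 1466, 1383 and 1503 FPKM and Vcan (versican), a large proteoglycan of provisional matrix, from 88.4, 76.5 and 157 to 27.1, 36.2 and 25.4 FPKM, whereas Acan, the aggrecan of cartilage, rose from 0.236, 0 and 0.0848 to 1.39, 3.46 and 1.34 FPKM, still a low level. Without MFN+GelMA 4W r2, 1 proteoglycan gene rose. Of 22 matricellular genes 6 fell and 3 rose. Thbs3, a thrombospondin, fell from 30.8, 28 and 27.6 to 4.57, 7.38 and 4.58 FPKM and Postn (periostin) from 1497, 1400.1 and 1271 to 973, 795 and 787 FPKM, while Ctgf, a target of TGF-beta and YAP, rose from 33.3, 26.9 and 63.4 to 178, 154 and 150.1 FPKM and Smoc2 from 16.2, 11 and 11.6 to 38.6, 46.1 and 42 FPKM. Of 28 matrix proteases and inhibitors 6 rose and 8 fell. The rises included Mmp9, Mmp12, Serpine2 and A2m above, and the falls Adamts4, an aggrecanase, by 1.66 ± 0.27, Adamts15 by 1.21 ± 0.17 and Mmp23 by 1.09 ± 0.16.

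Stromal cell genes fell in part. Among genes of progenitor fibroblasts 9 of 16 fell and 2 rose (median -1.02), beside 8.52% and 11.8% of all genes tested. Pdgfra, the PDGF receptor of fibroblasts, went from 63.7, 52.9 and 60.4 to 26, 27.9 and 26.7 FPKM, Cd34 down by 1.78 ± 0.22 on the log2 scale to 51.9, 95.4 and 63.6 FPKM, and Ackr3, a scavenger receptor for the chemokine CXCL12, from 56.4, 69.4 and 72.6 to 31.4, 29.7 and 34.9 FPKM. Pi16, a marker of fibroblasts around vessels, rose from 40.2, 26.3 and 34.7 to 78.8, 81.6 and 102 FPKM. Pericyte genes had the lowest median of the lists with at least 10 tested genes, -1.21, and 8 of 12 fell. Kcnj8 and Abcc9, the subunits of a pericyte potassium channel, fell from 28.5, 19.1 and 15.9 to 4.46, 5.95 and 7.08 FPKM and from 18.1, 18.6 and 12.9 to 5.37, 7.51 and 6.14 FPKM, and the metalloreductase gene Steap4 by 1.54 ± 0.29. The number of pericyte genes that fell was 3 without MFN+GelMA 4W r1, 4 without MFN+GelMA 2W r1 or MFN+GelMA 2W r2 and 5 without GelMA 4W r1 or MFN+GelMA 4W r3. Of 16 smooth muscle and myofibroblast genes 4 fell and 0 rose (median -0.62). Acta2, the smooth muscle actin of myofibroblasts, went from 121, 101 and 105 to 34.5, 72.3 and 43.9 FPKM (adjusted p = 0.04), a call lost without GelMA 4W r1 or r3, any MFN+GelMA 2W library or MFN+GelMA 4W r1 or r3 (adjusted p up to 0.148). The number of contractile genes that fell was 1 without MFN+GelMA 2W r1, MFN+GelMA 2W r2, MFN+GelMA 4W r1 or MFN+GelMA 4W r3 and 10 without GelMA 2W r3, 7 with quantile normalization and 9 in the fit of the 6 MFN+GelMA libraries alone.

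Endothelial genes were lower at 4 weeks, some of them past the test. All 20 tested endothelial genes had a negative log2 change (median -1.04) and 6 passed. Kdr, the main receptor for VEGF, went from 14.4, 20.9 and 17 to 4.79, 6.1 and 5.65 FPKM, Sox18, an endothelial transcription factor, from 23.3, 26.6 and 16.1 to 3.79, 5.01 and 4.98 FPKM, and Nos3, the endothelial nitric oxide synthase, from 6.92, 5.19 and 5.52 to 1.43, 1.52 and 1.94 FPKM. Each was lower in every 4W library than in any 2W library. Cdh5, the cadherin of endothelial junctions, fell from 116, 137 and 90.5 to 35.6, 34.7 and 37.5 FPKM, a call lost without any 1 of the 6 MFN+GelMA libraries (adjusted p 0.0555 to 0.0988). The number of endothelial genes that fell was 3 without MFN+GelMA 2W r1, MFN+GelMA 2W r2, MFN+GelMA 2W r3, MFN+GelMA 4W r1 or MFN+GelMA 4W r3 and 14 without GelMA 2W r3, and GelMA 2W r3, which enters only through the shared estimate of the spread, had 27.4 FPKM of Cdh5 beside 114 and 128 in its group. In the fit of the 6 MFN+GelMA libraries alone 14 of the 20 fell. Red cell genes moved the same way, with 4 of 4 tested genes lower and 1 past the test, Hba-a3, and the haemoglobin gene Hba-a2 was at 153, 229.7 and 144 and 39, 77.4 and 58.9 FPKM. The number of red cell genes that fell was 0 without GelMA 4W r1, MFN+GelMA 2W r1, MFN+GelMA 2W r3, MFN+GelMA 4W r1 or MFN+GelMA 4W r3, 2 without GelMA 2W r2 and 4 without GelMA 2W r3, and the reads of Hba-a3 may be shared with near-identical globin genes.

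Signals that act on vessels and stroma were mixed. Of 19 angiogenic genes 4 fell and 5 rose (3 without MFN+GelMA 4W r3), where 8.52% of all genes tested fell and 11.8% rose. Apln, a peptide of sprouting endothelium, fell from 6.73, 6.17 and 6.85 to 1.13, 1.42 and 1.41 FPKM, and Angpt2, which destabilises vessels, from 20.4, 24.8 and 23.5 to 5.66, 7.31 and 7.17 FPKM. Nrp1, a VEGF coreceptor, rose from 67.8, 59.3 and 57.9 to 122, 95.3 and 121 FPKM and Pdgfa, a growth factor for fibroblasts, from 14.5, 17.2 and 25.1 to 40.6, 41.3 and 47.5 FPKM. Of 27 TGF-beta pathway genes 5 fell and 2 rose, the rises being a smaller share than the 11.8% of all genes. The rises were the ligand Tgfb1 (78.4, 78.8 and 75.2 to 109, 119.8 and 122 FPKM) and the receptor Tgfbr1 (23.3, 18.8 and 23.9 to 70.0, 83.8 and 65.6 FPKM). The coreceptor Tgfbr3 fell by 0.62 ± 0.13 and Lrrc32, which anchors latent TGF-beta, by 0.96 ± 0.16. The number of this list that fell was 2 without MFN+GelMA 4W r1 and 3 without MFN+GelMA 2W r1 or MFN+GelMA 2W r3. Among Wnt antagonists and targets 2 of 11 rose and 2 fell. Sfrp2 fell from 193, 209 and 263 to 38.9, 34.4 and 40.2 FPKM (log2 change -2.51 ± 0.13, adjusted p = 8.30e-06), the opposite of its relative Sfrp5 above, and Dkk3 fell by 0.89 ± 0.18. Wif1, the other rise, lost its call without MFN+GelMA 2W r1 or r3 or 4W r1 or r2 (adjusted p up to 0.127), and 1 gene of the list rose with quantile normalization. Of 12 insulin-like growth factor genes 2 rose, Stc2, an inhibitor of IGF-binding protein cleavage, from 1.82, 2.35 and 2.11 to 10.6, 10.7 and 13.5 FPKM, and Igf2r by 0.65 ± 0.18, a call lost without any 1 MFN+GelMA library (adjusted p 0.0541 to 0.0888). Of this list 1 gene rose with quantile normalization, and 1 rose and 2 fell without the mitochondrial genes.

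For most of the other lists the share that passed was near the 20.3% of all genes tested, or below it, the exception being cartilage and bone genes. Of 35 cell cycle genes 2 fell, Cdk1 and Birc5, and 0 rose (median -0.21). The number that fell was 0 without MFN+GelMA 2W r3, MFN+GelMA 4W r1 or MFN+GelMA 4W r3 and 1 without GelMA 2W r1 or MFN+GelMA 2W r1. It was 4 without MFN+GelMA 2W r2 or MFN+GelMA 4W r2, and 5 when FPKM were rescaled without the mitochondrial genes. Of 15 fat cell genes 1 rose, Cidea, a lipid droplet protein, from 2.33, 2.78 and 0.676 to 17.3, 13.1 and 22 FPKM. The carrier gene Fabp4 stood at 1563, 1717 and 1257 and 5830.3, 4786 and 5922 FPKM. It did not pass in the fit over all 12 libraries (limma adjusted p = 0.0554). In the fit of the 6 MFN+GelMA libraries alone Fabp4 passed, with a log2 change of 1.87 ± 0.15 (limma adjusted p = 2.54e-04). The number of fat cell genes that rose was 2 without GelMA 2W r2 or r3 and 3 without GelMA 4W r2, and 2 genes rose after median centring. Of 10 Schwann cell genes 2 rose (5 without MFN+GelMA 4W r1, 4 with quantile normalization). They were Egr2, from 8.55, 6.79 and 8.1 to 30.2, 31.6 and 31.7 FPKM, and Pmp22, from 164, 185 and 157 to 354, 294 and 342 FPKM, both also made by other cells. Among immediate early genes 3 of 20 rose and 1 fell (3 without MFN+GelMA 2W r2), with the stress factor Atf3 going from 52.2, 50.6 and 46.7 to 212, 179 and 206 FPKM. Of 26 chaperone genes 3 fell, among them Pdia4 of the endoplasmic reticulum by 0.89 ± 0.16, and 2 rose, Hspd1 and Bag3. The number that fell was 5 without GelMA 4W r2 or MFN+GelMA 2W r2, and at most 1 rose without any single library other than GelMA 4W r2 or r3. The directions of this list moved with the scaling, with 6 lower and 0 higher after quantile normalization, 7 and 0 without the mitochondrial genes, and 1 higher with TMM scaling. Of 21 cholesterol genes none passed by limma (4 had an unadjusted p under 0.05). Of 6 tested cartilage and bone genes 2 rose, the phosphatase gene Alpl from 0.792, 0.197 and 0.843 to 2.31, 3.8 and 2.25 FPKM and the transcription factor gene Runx2 from 8.56, 10.5 and 9.59 to 20.4, 22.2 and 17.5 FPKM, and 2 fell, Tnfrsf11b and Sost. Sost did not pass without MFN+GelMA 2W r1 or any 4W library (adjusted p up to 0.0734). Few genes of skeletal muscle fibres (4 of 19), muscle regeneration (1 of 11) and keratinocytes (1 of 14) could be tested, and none of these passed by limma (0 to 1 had an unadjusted p under 0.05).

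The change in MFN+GelMA was then set against the change over the same weeks in GelMA alone. The GelMA libraries varied in tissue content. Summed FPKM of the fat cell list ran from 719 to 3077 in GelMA 2W and from 2479 to 17416 in GelMA 4W. In MFN+GelMA the ranges were 1479 to 1974 and 4998 to 6172. Most of these MFN+GelMA sums came from Fabp4, so they follow that gene more than the fat cell list as a whole. Adipoq did not pass between the times in MFN+GelMA (log2 change 0.79, limma adjusted p = 0.776). The endothelial list ran from 194 to 623 in GelMA 2W and from 547 to 639 in MFN+GelMA 2W. Whether tissue content enters the differences between the materials was not tested. The difference between the changes passed the test for 1749 of the 11756 genes, 14.9%, of which 1139 (9.69%) were more positive in MFN+GelMA and 610 (5.19%) more negative. In GelMA alone 280 genes, 2.38%, passed between 2 and 4 weeks, 58 (0.493%) higher and 222 (1.89%) lower. The count for GelMA alone rested on single libraries, with 7 genes without GelMA 4W r1, 27 without GelMA 2W r1, 84 without GelMA 2W r2 and 169 without MFN+GelMA 4W r3. The count for the difference was 964 without GelMA 4W r1 and 1138 without MFN+GelMA 4W r1, and 734 genes were more positive without MFN+GelMA 4W r3. Genes lower at 4 weeks in both materials numbered 55, 5.49% of those that fell in MFN+GelMA and 24.8% of those that fell in GelMA. Of all genes tested, 1.89% fell in GelMA and 8.52% in MFN+GelMA. Genes that rose in MFN+GelMA and fell in GelMA numbered 26, 1.88% and 11.7% of the respective sets. The latter share is close to the 11.8% of all genes tested that rose in MFN+GelMA. Genes higher in both numbered 15, 1.08% and 25.9% of the sets, where 0.493% of all genes rose in GelMA and 11.8% in MFN+GelMA. Another 4 fell in MFN+GelMA and rose in GelMA, 0.399% and 6.9% of the sets, beside 0.493% and 8.52% of all genes.

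The rise of the macrophage and giant cell genes differed between the materials. In the difference 13 of 21 macrophage genes, 11 of 21 lipid-associated macrophage genes and 9 of 17 osteoclast genes were more positive in MFN+GelMA. None was more negative, where 9.69% of all genes tested were more positive and 5.19% more negative. With 1 library left out the counts of more positive genes were 12 to 16, 8 to 11 and 5 to 11. The 5 osteoclast genes came without GelMA 4W r1 or MFN+GelMA 4W r3. Over the weeks in GelMA alone, the medians of these lists were -0.53, -0.20 and 0.04 on the log2 scale, beside 0.70, 1.33 and 0.94 in MFN+GelMA. Spp1 was at 248, 63.8 and 45.6 FPKM in GelMA 2W and 68.3, 39.4 and 177 FPKM in GelMA 4W. These values lay far below those of MFN+GelMA 4W, but the highest of GelMA 2W came near the lowest of MFN+GelMA 2W. The Spp1 difference was 2.94 (adjusted p = 0.0399). It did not pass when any 1 library other than GelMA 2W r2 and r3 or GelMA 4W r3 was left out (adjusted p up to 0.0903). Itgax stood at 20.5, 25.1 and 13.8 and 20.5, 14.2 and 39.9 FPKM in GelMA, with a difference of 2.46 (adjusted p = 0.00659). Acp5 rose in GelMA too, from 25.5, 22.8 and 30.4 to 41.1, 57.1 and 80.8 FPKM (adjusted p = 0.0393), less than in MFN+GelMA (difference 1.21, adjusted p = 0.0361). That difference did not pass when any 1 library other than GelMA 2W r2, GelMA 4W r3 or MFN+GelMA 4W r1 was left out (adjusted p up to 0.0782). The rise of Acp5 in GelMA did not pass without GelMA 2W r1 or r2, GelMA 4W r1 or r3, MFN+GelMA 2W r1 or r3 or MFN+GelMA 4W r3. For Atp6v0d2, Lpl, Mmp9 and Mmp12 the difference did not pass (adjusted p = 0.0625, 0.0642, 0.105 and 0.11).

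Vessel, progenitor fibroblast and elastic fibre genes also differed between the materials. In the difference 6 of 12 pericyte, 6 of 20 endothelial, 10 of 16 progenitor fibroblast and 7 of 16 elastic fibre genes were more negative in MFN+GelMA. The 6 pericyte genes were 2 without MFN+GelMA 4W r1 and 3 without GelMA 4W r1, MFN+GelMA 2W r1 or r2, or MFN+GelMA 4W r2 or r3. The 6 endothelial genes were 11 without GelMA 2W r2 and 1 without GelMA 4W r1 or r2 or any MFN+GelMA library, and the 10 progenitor fibroblast genes were 6 without GelMA 4W r1. The medians in GelMA were 0.34, 0.57, 0.26 and -0.28, so the median of the elastic fibre genes was negative in both materials. Of 16 fibrillar and related collagens 2 were more positive and 1 more negative, and of 15 proteoglycan genes 1 and 2, beside 9.69% and 5.19% of all genes. The more positive collagens were 0 without GelMA 2W r1, GelMA 2W r3, GelMA 4W r1, MFN+GelMA 2W r3, MFN+GelMA 4W r1 or MFN+GelMA 4W r3 and 1 without GelMA 4W r2, GelMA 4W r3, MFN+GelMA 2W r1 or MFN+GelMA 4W r2, and the more negative ones 2 without GelMA 4W r2. No proteoglycan gene was more positive without GelMA 4W r1. Cd34 was at 351, 359 and 279 FPKM in GelMA 2W and 389.7, 289 and 312 FPKM in GelMA 4W, so those groups overlapped, and the difference was -1.78 (adjusted p = 0.00639). Ret, a receptor of nerve growth signals, and Art3, an ADP-ribosyltransferase-like gene, were among the 8 genes with the most negative difference. Ret was -2.67 (adjusted p = 0.00412) and Art3, whose locus is shared with 2 other rows, -2.76 (adjusted p = 0.00936). Mme, the peptidase neprilysin, had -2.87, and the calcium buffer gene Pvalb of fast muscle -4.96, where a single 2W library with muscle RNA held 46.7 FPKM beside 1.69 and 4.43. The difference of Pvalb did not pass without GelMA 4W r1 or MFN+GelMA 4W r1 (adjusted p up to 0.0538).

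Interferon-stimulated genes fell in both materials. In GelMA alone 16 of the 29 interferon genes fell, with a median of -1.44, where 1.89% of all genes tested fell. The interferon genes that fell were 1 without GelMA 4W r1, 2 without GelMA 2W r1, 3 without GelMA 2W r2 and 6 without GelMA 4W r3. The difference passed for 2 of the 29 genes, in the positive direction, where 9.69% of all genes tested were more positive. It passed for 1 without GelMA 2W r1, GelMA 2W r2, GelMA 4W r1, MFN+GelMA 2W r1, MFN+GelMA 4W r1 or MFN+GelMA 4W r3. Isg15 was at 47.7, 98.7 and 28.3 FPKM in GelMA 2W and 4.19, 21.5 and 2.86 FPKM in GelMA 4W. Oas1a was at 47.4, 68.4 and 34.1 and 9.83, 22.3 and 8.78 FPKM, with a difference of -0.15 (adjusted p = 0.866), and Irf7 had a difference of 0.21 (adjusted p = 0.891). A p that misses the threshold does not show that the materials acted alike, and the standard errors of these differences were 0.47 and 0.79 on the log2 scale. Lcn2 and Cxcl6, among the largest falls with the composite, differed between the materials. Lcn2 was at 20.8, 18.7 and 4.01 FPKM in GelMA 2W and 17.6, 16.3 and 11.2 FPKM in GelMA 4W, with a difference of -4.87 (adjusted p = 0.0087), and Cxcl6 at 0.582, 0.107 and 0.106 and 0.265, 0.29 and 0.285 FPKM, with a difference of -4.22 (adjusted p = 0.0167). Of 6 tested neutrophil genes 2 were more negative and 0 more positive, and the more negative ones were 4 without MFN+GelMA 2W r2. Other inflammatory lists had differences in both directions. Of 14 cytokine and mediator genes 4 were more positive and 1 more negative, and of 23 chemokine genes 3 and 2. Of all genes tested 9.69% were more positive and 5.19% more negative, so the chemokine shares were close to those of all genes. The more positive cytokine genes were 2 without GelMA 2W r1, GelMA 4W r1, MFN+GelMA 2W r2, MFN+GelMA 4W r1 or MFN+GelMA 4W r3 and the more negative ones 0 without GelMA 4W r1 or MFN+GelMA 4W r1 and 2 without MFN+GelMA 2W r2. The more positive chemokine genes were 1 without GelMA 2W r1, GelMA 4W r1 or MFN+GelMA 4W r3, and the more negative ones 1 without GelMA 2W r1, GelMA 2W r3, GelMA 4W r1, MFN+GelMA 4W r1 or MFN+GelMA 4W r2. Cst6, the largest rise with the composite, was at 3.2, 7.31 and 1.21 and 7.52, 6.82 and 10.5 FPKM in GelMA (difference 3.45, adjusted p = 0.00633), and Faim, an inhibitor of Fas-induced cell death, had a difference of 3.28 (adjusted p = 0.00832). Fcgr3a, an Fc receptor of monocytes and natural killer cells, had a difference of 3.30 (adjusted p = 0.0472) with the larger movement in GelMA, at 70.5, 21.3 and 6.52 FPKM and then 1.76, 3.65 and 3.09 FPKM, beside 4.9, 27.7 and 14.3 and 22.2, 17.3 and 24.3 FPKM in MFN+GelMA. It did not pass when any 1 library other than GelMA 2W r3 or MFN+GelMA 2W r2 was left out (adjusted p up to 0.11).

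**Figure D4:**
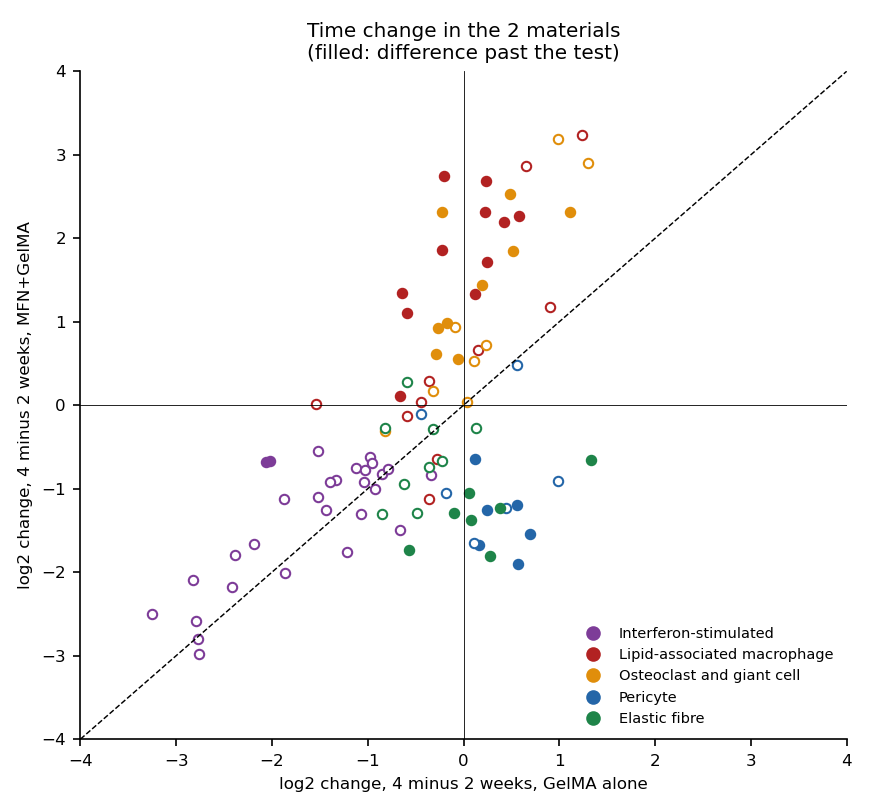
Log2 change from 2 to 4 weeks in MFN+GelMA (vertical) against that in GelMA alone (horizontal) for the tested genes of 5 lists. Filled points have a difference between the materials that passed the test, and the dashed line marks equal change. Interferon genes lie low on both axes (medians -1.10 and -1.44), whereas lipid-associated macrophage genes lie high on the vertical axis and near 0 on the horizontal (medians 1.33 and -0.20) and pericyte genes low on it (-1.21 and 0.34).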

How the data were processed

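RNA of rat tissue around implants was sequenced in 12 libraries, 3 per material and time. Per the submitters' processing notes, cutadapt 1.9.3, HISAT2, Cuffdiff and the build rn6 were used. The sources used here do not give the version of the aligner, the annotation or the use of strand. The authors deposited 1 table with FPKM values per gene, and the FPKM values were used for every test. The same table holds columns headed as counts, per the file headers, which are not whole numbers and were treated as a signal, deposited by the authors after a scaling per library. That signal served only to estimate depth. All 24 value columns were matched to samples by name.

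The 22062 rows were summed by symbol (233 symbols on 498 rows), which gave 21797 genes. Of the rows, 18 have no symbol and 2559 share their coordinates with another row, so their reads may have been split. Genes with at least 1 FPKM in 3 or more of the 6 MFN+GelMA libraries were tested on log2(FPKM + 1) with limma 3.58.1 (intensity trend, two-sided) in R 4.3.3. The fit held all 12 libraries with 1 mean per group, which gives 8 residual and 3.35 prior degrees of freedom, and p-values were adjusted by the Benjamini-Hochberg method over all genes tested, with a threshold of 0.05. Fold changes on this scale understate the change of low genes. The procedure was tested on simulated data.

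The members and the gene lists were chosen with earlier results of these data known, so lists are described by counts and medians, with no test over a list. Genes named are the 15 largest changes in each direction (mean over the 6 libraries 2 FPKM or more, no automatic identifiers as symbols), the 8 largest differences between the materials in each direction, up to 5 genes per list and a fixed set of markers. Most were thus picked by their change in these libraries, so separate values at the 2 times come in part from that choice. The share of all genes with separate times was not counted. Gpnmb, Ctsk, Apoe, C3ar1, Adgre1, Aif1, Msr1, Col1a1, Col3a1, Gas6 and other genes named to explain a count of a few, as well as the promoters printed, were chosen after their values were seen. Promoters are RefSeq sequences of build GRCr8, the 250 bases before each start, matched by symbol, and 8788 of the genes tested had one. Depth limits the precision of low FPKM values, and no interval for it is given since raw counts were not used here. Alternatives covered filters, pseudocounts, scalings, the spread model, a replicate block, the threshold and leaving out each library. A few genes that these rules would name are not reported here.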

Additional observations from a re-analysis of the deposited data

Results flagged for a closer look

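The change from 2 to 4 weeks differed between the materials, by limma's test of the difference at an adjusted p under 0.05, for 105 genes named in the report, and each of these was looked at again for that reason. Values are the log2 change in MFN+GelMA minus the log2 change in GelMA, so a positive value marks a gene that went up more, or down less, with the composite. In 56 of the 105 the changes in the materials had opposite signs. In 46 they had the same sign with the larger change in MFN+GelMA. Most named genes were picked by their change in MFN+GelMA or by their difference, so these 2 counts follow in part from that choice. Of all 11756 genes tested 14.9% had a difference that passed, and their split by sign was not counted. No explanation of these differences was tested.

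Genes of macrophages and giant cells had positive differences. Among identity genes of macrophages the difference was 1.93 for Cybb, 1.83 for Itgb2, 1.76 for Ptprc, 1.33 for Cd68, 1.27 for Laptm5, 1.10 for Csf1r and 0.89 for Adgre1. Among the lipid-associated state it was 2.94 for Spp1, 2.46 for Itgax, 2.09 for Lipa, 1.78 for Trem2, 1.70 for Gpnmb, 1.69 for Cd9 and 1.22 for Fabp5. The osteoclast genes had 2.55 for Ocstamp, 2.05 for Ckb, 1.32 for Ctsk, 1.25 for Tnfrsf11a and 1.21 for Acp5. Subunits of the proton pump had 1.58 for Atp6v1b2, 1.24 for Atp6v1h, 1.18 for Atp6v1d and 1.06 for Atp6v1c1. Cd163 of resident-like macrophages went the other way, with -2.10 for Cd163. Antigen presentation and dendritic cell genes held 1.25 for RT1-DOb, 1.15 for Ctss, 1.15 for Irf4 and -1.07 for Fscn1.

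Inflammatory mediators differed in both directions. The negative differences were -4.87 for Lcn2, -4.22 for Cxcl6, -3.12 for Cfb, -1.83 for Ptges, -1.61 for C4b and -1.23 for C1r. The positive ones were 3.30 for Fcgr3a, 2.41 for Il1rn, 2.06 for C3ar1, 1.98 for Cd86, 1.59 for Ccl9 and 0.95 for Cd59. Energy and stress genes had 2.26 for Atf3, 1.54 for Ndrg1, 1.19 for Pkm, 1.15 for Pfkp, 0.70 for Ndufs1 and 0.59 for Sdhb. Egr2 and Pmp22 of the Schwann cell list had 2.37 and 0.88.

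Matrix and stromal genes mostly had negative differences. Elastic fibre genes had -2.10 for Mfap2, -1.61 for Ltbp1, -1.46 for Mfap5, -1.17 for Efemp1 and -1.11 for Fbln5. Collagen processing and collagen genes had -1.25 for Pcolce, -1.10 for Serpinh1, -1.10 for Bmp1, -0.91 for Adamts14 and -1.59 for Col6a6, against 2.90 for Col11a1 and 1.62 for Col8a2. In the basement membrane the values were -0.92 for Lamc1, 1.75 for Lama3 and 1.41 for Col17a1. Other matrix and protease genes had -1.98 for Thbs3, -1.59 for Adamts4, -1.41 for Dcn, -1.28 for Mmp23 and -1.0 for Adamts15 and, above 0, 3.24 for A2m, 2.54 for Serpine2, 1.45 for Acan and 1.17 for Smoc2. Alpl of the cartilage and bone list had 1.13. Fibroblast and pericyte genes had -2.24 for Steap4, -1.84 for Kcnj8, -1.78 for Cd34, -1.64 for Ackr3, -1.50 for Abcc9, -0.73 for Pdgfra and 1.06 for Pi16. Vessel genes had -2.33 for Nos3, -2.28 for Angpt2, -1.74 for Kdr, -1.60 for Apln and 1.03 for Nrp1. Signalling genes had 2.87 for Sfrp5, 1.84 for Tgfbr1, 1.12 for Stc2, 0.96 for Tgfb1 and 0.94 for Igf2r, and below 0 -1.45 for Sfrp2, -0.96 for Tgfbr3 and -0.92 for Lrrc32.

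The remaining genes were among the largest changes without a list of their own. Their differences were 4.45 for Stra13, 3.45 for Cst6, 3.29 for Cldn4, 3.28 for Faim, 3.27 for Pxt1, 2.53 for Hspb7 and 2.44 for Cela1, and below 0 -4.96 for Pvalb, -2.87 for Mme, -2.77 for Prnd, -2.76 for Art3 and -2.67 for Ret. Stra13 and Pxt1 are listed at 0 in several libraries, so the size of their difference rests on the pseudocount. Pvalb had its highest value in the 2W library with muscle RNA.

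For 25 of these genes the difference did not pass the test when at least 1 of the 12 libraries was left out, namely Abcc9, Acan, Acp5, Adamts14, Adgre1, Alpl, Cfb, Col11a1, Col8a2, Ctsk, Fcgr3a, Igf2r, Kdr, Lrrc32, Ndufs1, Pi16, Ptges, Pvalb, Pxt1, RT1-DOb, Sdhb, Serpinh1, Smoc2, Spp1 and Stra13. GelMA 4W replicate 1 ended the most of these calls, 21, followed by MFN+GelMA 4W replicate 1 with 17, and GelMA 4W replicate 3 the fewest, 5. The other 80 passed in each of the 12 fits without 1 library.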

How the results depend on the processing

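Of 156 named genes that passed the test between 2 and 4 weeks in MFN+GelMA, 138 passed under each alternative in which they could be tested and 18 did not under at least 1, among 29 settings, and the cause of those losses was not tested. Signs turned for Cd3e (-0.05 to 0.43 with 1 library left out) and Msr1 (-0.42 to 0.01), neither past the test. With the threshold at 0.01 the genes that passed in MFN+GelMA were 1129 (716 higher, 413 lower), those with a difference between the materials 493 (346 and 147), and those in GelMA 16 (0 and 16), which a stricter threshold brings by construction. Array weights gave 808 genes in GelMA (217 higher, 591 lower), and the cause was not tested. With 1 library left out the counts ranged from 1545 to 2654 in MFN+GelMA (915 to 1452 higher, 555 to 1220 lower), from 964 to 1623 for the difference (664 to 1076 more positive, 300 to 602 more negative) and from 7 to 282 in GelMA (0 to 58 higher, 7 to 224 lower). The rescaling without mitochondrial genes and the fit without both GelMA and MFN+GelMA 2W replicate 2 were chosen after seeing the data, and the latter gave 1989 genes. Scalings moved the median over all genes by at most 0.07 on the log2 scale. The deviations of MFN+GelMA libraries with the same replicate number correlated at 0.0188, -0.00204 and 0.0176 between the times. Unlike numbers gave -0.0197 to 0.00421. With 3 libraries per time these values cannot decide whether the numbers pair the samples. With the replicate number as a block 2359 genes passed in MFN+GelMA, 1711 for the difference and 278 in GelMA, with 3 named calls lost. The planned test on recovered reads was not run. Of the positive count-like values 99.4% to 99.5% per MFN+GelMA library lay within 0.05 of a whole multiple of a fitted step, but the smallest were fractions of that step, so they were not taken as raw counts.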
